A study of Homo sapiens with 6 samples.

Results

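The mRNA levels of 10 genes for E3 ubiquitin ligases that act on LATS kinases, YAP or p73 were compared between HCT116 cells treated with oxaliplatin and non-treated cells. The 10 genes were ITCH, NEDD4, NEDD4L, WWP1, WWP2, SMURF1, SMURF2, BTRC, FBXW11 and SIAH2, chosen by name for the known action of their proteins. The choice was made with earlier results of these data known. All 10 were found among the 27942 genes of the deposited count table, and all 10 passed the filter on low counts, as did 13727 genes in all. HCT116 is an established human colorectal carcinoma line of epithelial origin. The OXA group held 3 libraries from cells given oxaliplatin at 0.5 µM for 24 h, and the NT group held 3 libraries from cells left without the drug. Both groups were the same line in the same serum-containing medium, and polyadenylated RNA was sequenced from each culture. A single cell line was sampled at 1 dose and 1 time, and the labels do not say whether the 3 libraries of a group came from independent experiments, so p-values measure only the spread between these libraries.

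Ubiquitin ligases attach ubiquitin to chosen proteins, and in many cases the marked protein is then degraded by the proteasome. ITCH, NEDD4, NEDD4L, WWP1, WWP2, SMURF1 and SMURF2 belong to the NEDD4 family of HECT ligases, whose WW domains bind PPxY motifs such as those of LATS kinases and p73. BTRC and FBXW11 encode the β-TrCP proteins, the substrate-binding subunits of SCF ligases that recognize YAP and TAZ after their phosphorylation by LATS and CK1, as well as β-catenin and IκB. SIAH2 is a RING ligase with a known action on LATS2. In the Hippo pathway LATS kinases restrain YAP and TAZ, so these ligases can act on the pathway above and below LATS, and p73 is a p53-related transcription factor to which YAP can bind. The measurements here are of mRNA, and neither the ligase proteins nor ubiquitination were measured in these libraries. Whether the ligase genes themselves respond to the drug was the question addressed.

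The libraries held between 32979521 and 40967880 counts. CDKN1A, a p53 target used here to check that treated libraries carried the response, had 4235, 5143 and 6050 normalized counts in NT and 40181, 41316 and 35832 in OXA. Normalized counts are raw counts scaled by 1 TMM factor per library. NT library 1 stood apart from the other NT libraries, with a chi-square per gene of 83.1 and 75.7 against them, where the other pairs within a group lay between 19.2 and 29.6. All 8 epithelial markers on the list passed the filter, with summed normalized counts of 80058 to 115515 in NT and 130515 to 154491 in OXA, although VIL1 was low. Of the 8, ELF3 was the 1 higher in OXA at an edgeR adjusted p under 0.05, and the part of this marker difference in the ligase values was not tested. Of the 10 markers of immune, endothelial and stromal cells, 3 passed the filter, none had more than 273 counts in a library, their sum was 302 to 537 in NT and 422 to 524 in OXA, and DCN was at 0 in all 6.

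In the comparison of OXA with NT, 0 of the 10 ligase genes had an edgeR adjusted p under 0.05, against 5.07% of all genes tested. At an unadjusted p under 0.05 there was 1, NEDD4, which was lower in OXA, against 21.7% of all genes. DESeq2 also called 1, again NEDD4, against 8.71% of the 13488 genes to which it gave an adjusted p. When edgeR fitted the replicate number as a block, 2 of the 10 were called, NEDD4 lower and ITCH higher, against 23.0% of all genes. In 3 of the 10 the normalized counts of the groups did not overlap (NEDD4 and NEDD4L lower in OXA, SIAH2 higher), against 28.9% of all genes. With 10 genes, a count of 1 with DESeq2 and of 3 without overlap lay slightly above the background share, and the other counts lay below it. The log2 fold changes, OXA over NT throughout, lay between -0.47 and 0.20, 5 above 0 and 5 below, with a median of 0.0044. Their median size without sign was 0.129, against 0.192 over all genes tested.

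**Figure D1:**
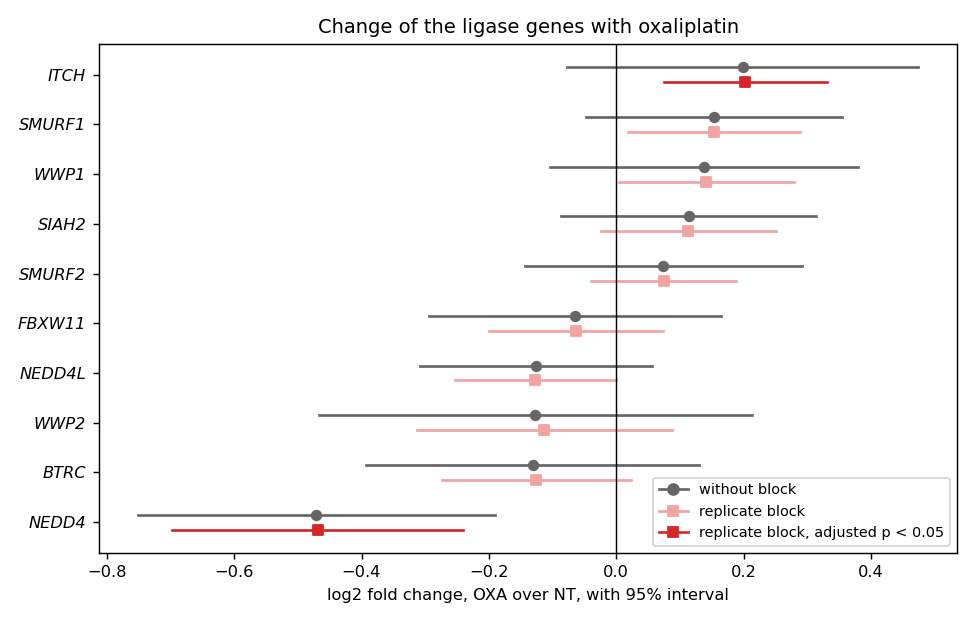
Log2 fold change, OXA over NT, of the 10 ligase genes with 95% intervals, without a block (grey circles) and with a replicate block (squares, dark red where the edgeR adjusted p was under 0.05). NEDD4 is set apart at the bottom at -0.47, and the other 9 lie between -0.13 and 0.20, with ITCH the one of them called with the block.

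The 2 genes called with the block are shown with the sequence at their start. NEDD4 (ENSG00000069869) lies on the minus strand at chr15:55826922-55993660 and ITCH (ENSG00000078747) on the plus strand at chr20:34363235-34511773, both in GRCh38 with GENCODE release 44. The windows below were taken from RefSeq on GRCh38 and hold the 250 bases before and 50 bases after an annotated start, at chr15:55993563-55993862 for NEDD4 and chr20:34363023-34363322 for ITCH, written 5′ to 3′ on the strand of the gene. Capitals mark a match to the letters TTTCCCGC, 1 of 2 forms of an E2F motif that were searched on both strands.
NEDD4: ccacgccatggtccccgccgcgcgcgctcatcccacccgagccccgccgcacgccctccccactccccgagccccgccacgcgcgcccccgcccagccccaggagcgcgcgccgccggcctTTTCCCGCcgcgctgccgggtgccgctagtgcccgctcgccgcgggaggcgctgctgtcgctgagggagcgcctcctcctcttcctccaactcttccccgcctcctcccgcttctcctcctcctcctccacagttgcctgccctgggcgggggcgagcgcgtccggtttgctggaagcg
ITCH: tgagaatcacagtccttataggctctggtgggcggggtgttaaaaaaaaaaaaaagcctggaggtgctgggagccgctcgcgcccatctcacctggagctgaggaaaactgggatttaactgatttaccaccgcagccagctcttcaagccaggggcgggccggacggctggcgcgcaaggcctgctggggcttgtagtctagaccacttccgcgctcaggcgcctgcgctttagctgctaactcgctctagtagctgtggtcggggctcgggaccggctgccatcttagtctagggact
The NEDD4 window was 77.0% G and C and held TTTCCCGC once, which 1.63% of 35116 such windows hold. The ITCH window was 59.0% G and C and held no match to any of the motifs searched, so it has no capitals. Windows were found for 8 of the 10 genes, and BTRC and WWP1 had none. Where RefSeq gave several (5 for NEDD4L, 3 each for NEDD4 and WWP2), the one nearest the GENCODE start was searched, which for NEDD4L lay 3000 bases from that start. The second E2F form (TTTGGCGC, in 0.652% of all windows) and the CHR element (TTTGAA, in 15.2%) were in none of the 8. The TEAD motif (GGAATG, in 14.0% of all windows) was in the one searched for NEDD4L, and the half-site of p53 (in 6.63%) was in those of FBXW11 and SIAH2. These are matches of letters in a window, not measured binding sites.

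NEDD4, the founding ligase of the family, which acts on LATS kinases and on membrane proteins, had the largest difference of the 10. Its normalized counts were 1261, 1051 and 1071 in NT and 803, 748 and 889 in OXA. Every OXA library lay below every NT library, and the same-numbered ratios of OXA to NT were 0.636, 0.712 and 0.830. The mean was 1128 ± 116 (SD, n = 3) in NT and 813 ± 71 in OXA, a fold of 0.721 with a 95% interval of 0.594 to 0.876. The log2 fold change of -0.47 (standard error, SE, 0.12) had an edgeR adjusted p of 0.0693 without the block and 0.0209 with it. It placed NEDD4 at percentile 6.81 of the log2 fold changes of all genes tested. The DESeq2 adjusted p was 0.0292, and with any 1 library left out and no block the edgeR adjusted p lay between 0.0609 and 0.249. With the block and without same-numbered pair 1, 2 or 3, the edgeR adjusted p was 1.75e-06, 0.0342 and 0.000555. The log2 fold changes in these fits were -0.37, -0.49 and -0.58. Only 2 pairs were left in each fit. That without pair 1 called 5739 of 13845 genes, so a small p there was common to many genes.

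NEDD4L, the closest relative of NEDD4 and best known for its action on the epithelial sodium channel and on SMAD proteins, had 2728, 2698 and 2689 normalized counts in NT and 2569, 2464 and 2403 in OXA. The groups did not overlap, and the NT libraries were closer to each other than for any other member, with a coefficient of variation of 0.757%. The log2 fold change was -0.13 (SE 0.079, 95% interval -0.31 to 0.056), with an edgeR adjusted p of 0.407 without the block and 0.128 with it. In the authors' normalized values the groups overlapped, at 2592, 2680 and 2419 in NT and 2442, 2964 and 2367 in OXA. With the authors' gene-specific factors in the fit the log2 fold change of NEDD4L was 0.015. With RLE and upper quartile scaling, each by 1 factor per library, it stayed negative, at -0.13 and -0.17.

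ITCH, the ligase known to drive the degradation of p73, had 4812, 3808 and 3921 normalized counts in NT and 5265, 4431 and 4696 in OXA. The groups overlapped, since NT library 1 lay above OXA libraries 2 and 3, but OXA was higher than NT under each number, with ratios of 1.09, 1.16 and 1.20. Without the block the log2 fold change was 0.20 (SE 0.12, 95% interval -0.077 to 0.47), with an edgeR adjusted p of 0.388. Without NT library 1 it was 0.31 (edgeR adjusted p = 0.0868), and without NT library 2, NT library 3 or OXA library 1 it was 0.10, 0.12 and 0.13. With the block it was 0.20 (SE 0.052, 95% interval 0.076 to 0.33), with an edgeR adjusted p of 0.0411. That call was lost with the authors' factors in the blocked fit (edgeR adjusted p = 0.0898) and without pair 2 (0.536) or pair 3 (0.394). Without pair 1 the value was 1.12e-04, in a fit that rested on 2 pairs and called 5739 of 13845 genes. The log2 fold change of ITCH without pair 1, 2 or 3 was 0.24, 0.16 and 0.16. Exons of ITCH overlap those of ITCH-IT1 and of ENSG00000289720 on the same strand. Exons of NEDD4L, WWP1, SMURF1, SMURF2 and SIAH2 overlap those of other genes on the opposite strand. The bearing of these overlaps on the counts was not tested.

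WWP1 and WWP2, a pair of closely related family members with known actions on LATS kinases and on p73 and p63, were not called in the fit without or with the block. WWP1 had 3466, 2817 and 3021 normalized counts in NT and 3573, 3177 and 3486 in OXA. The groups overlapped, and the log2 fold change was 0.14 (SE 0.10, 95% interval -0.10 to 0.38) with an edgeR adjusted p of 0.502. Without NT library 1 the log2 fold change of WWP1 was 0.23, and without NT library 2, NT library 3 or OXA library 3 it was 0.040, 0.086 and 0.089. WWP2 had 1856, 2599 and 2643 normalized counts in NT and 1994, 2281 and 2225 in OXA. NT library 1 was the lowest of the 6, which made the coefficient of variation of WWP2 in NT, 18.7%, the largest of the members, and OXA was higher than NT in pair 1 and lower in pairs 2 and 3. Its log2 fold change was -0.13 (SE 0.15, 95% interval -0.47 to 0.21) with an edgeR adjusted p of 0.675. It was -0.27 without NT library 1 and -0.27 with the authors' factors, and between -0.083 and -0.069 without NT library 2, NT library 3 or OXA library 1.

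SMURF1 and SMURF2 are best known for their action on SMAD proteins and TGF-β receptors. SMURF2 had the highest level of the 10, at 12088, 10429 and 11099 normalized counts in NT and 12423, 10991 and 11965 in OXA. Its groups overlapped, and the log2 fold change of 0.074 (SE 0.094, 95% interval -0.14 to 0.29) had an edgeR adjusted p of 0.705, and turned to -0.0078 without NT library 2. SMURF1 had 2333, 2371 and 2542 normalized counts in NT and 2736, 2531 and 2793 in OXA. OXA was higher under each number, and the groups overlapped only in that NT library 3 lay just above OXA library 2. The log2 fold change of SMURF1 was 0.15 (SE 0.087, 95% interval -0.048 to 0.35), with an edgeR adjusted p of 0.360 without the block and 0.0974 with it.

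Of the SCF subunits, BTRC had 3141, 2436 and 2758 normalized counts in NT and 2668, 2382 and 2560 in OXA. OXA was lower under each number, but of the OXA libraries only library 2 lay below the range of NT. The log2 fold change was -0.13 (SE 0.11, 95% interval -0.39 to 0.13) with an edgeR adjusted p of 0.558. That of BTRC was -0.034 without NT library 1, -0.087 without OXA library 2 and -0.25 without NT library 2. FBXW11 had 3831, 3206 and 3473 normalized counts in NT and 3434, 3112 and 3501 in OXA. Here the 2 groups lay over each other, and the log2 fold change was -0.065 (SE 0.099, 95% interval -0.29 to 0.16) with an edgeR adjusted p of 0.758, and turned to 0.0043 without NT library 1. SIAH2, the RING ligase, had 1686, 1599 and 1589 normalized counts in NT and 1829, 1735 and 1710 in OXA. The groups did not overlap, with ratios of 1.08, 1.08 and 1.08 within the pairs, yet the log2 fold change of 0.11 (SE 0.086, 95% interval -0.087 to 0.31) had an edgeR adjusted p of 0.505 without the block and 0.190 with it.

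**Figure D2:**
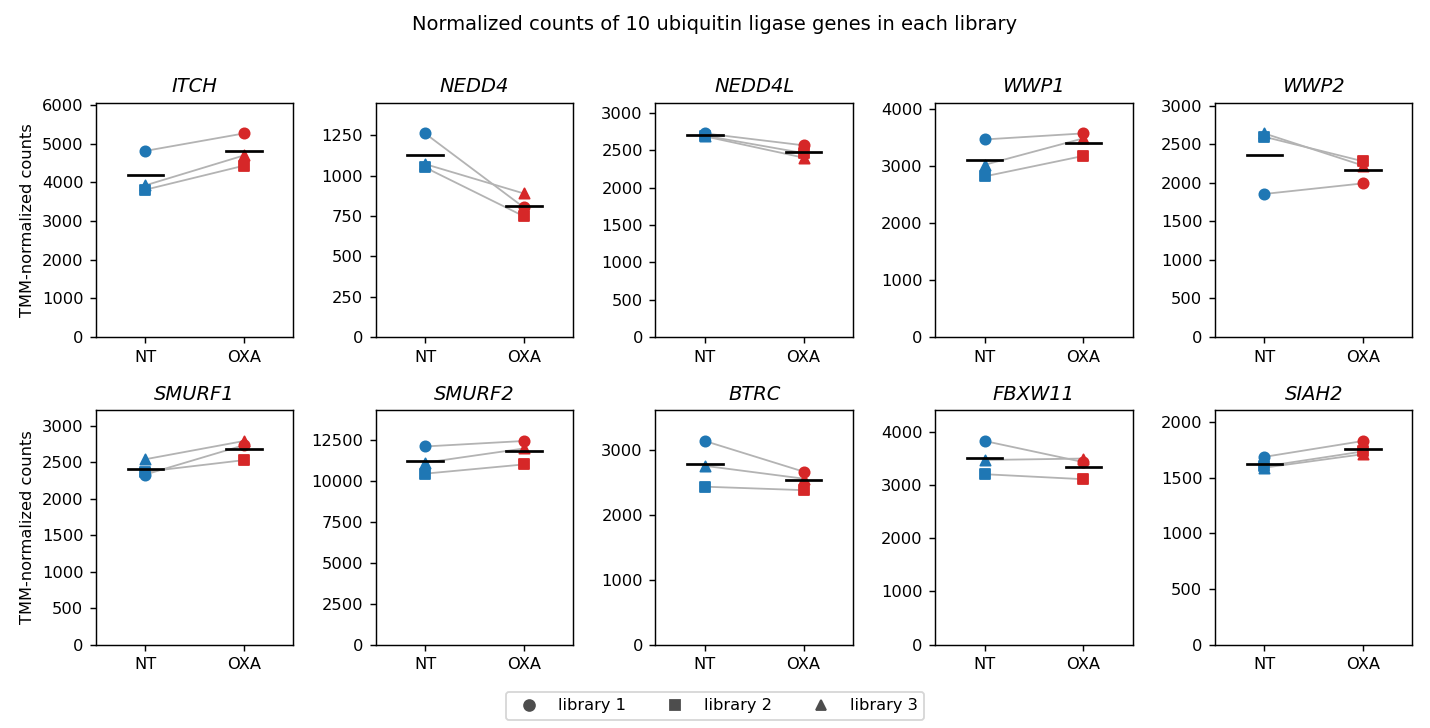
TMM-normalized counts of the 10 ligase genes in the 3 NT (blue) and 3 OXA (red) libraries, with a bar at each mean and grey lines joining libraries of the same number (circles 1, squares 2, triangles 3). NEDD4 is lower in all OXA libraries, from a mean of 1128 to 813, whereas most other panels show libraries of the same number lying at like heights in both groups.

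The libraries carried a common order across most ligase genes. Of the 10 genes, 8 had their highest NT value in library 1, the other 2 being WWP2 and SMURF1, and both of these were lowest there. In OXA, 6 of the 10 were highest in library 1 and 7 were lowest in library 2. Over the 3 same-numbered pairs, 5 of the 10 genes were higher in OXA in every pair (ITCH, WWP1, SMURF1, SMURF2 and SIAH2), 3 were lower in every pair (NEDD4, NEDD4L and BTRC), and WWP2 and FBXW11 were mixed. The same counts were not made over all genes tested, so no background share can be set beside them. NT library 1 stood apart over all genes tested as well, and these counts are not read as a trait of the ligase genes. What a replicate number stands for is not given in the sources used here.

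To compare levels between genes, CPM values (counts scaled to the library size after TMM) were divided by the length of the Ensembl canonical transcript in kb. On this scale SMURF2 was the most abundant ligase transcript, at 49.9 ± 3.72 per kb (SD, n = 3) in NT and 52.5 ± 3.26 in OXA. NEDD4 was the least abundant, at 5.47 ± 0.563 in NT and 3.94 ± 0.345 in OXA, and NEDD4L came next, at 8.71 ± 0.066 in NT and 7.98 ± 0.27 in OXA. The other 7 formed a continuous range in NT from SMURF1 (11.8 ± 0.548) through BTRC (12.8 ± 1.63), WWP2 (14.7 ± 2.74), ITCH (17.2 ± 2.27), WWP1 (17.7 ± 1.89) and SIAH2 (19.5 ± 0.639) to FBXW11 (22.1 ± 1.98). Within this range the NT libraries of each gene overlapped those of the next, whereas NEDD4, NEDD4L and SMURF1 were separated from each other and SMURF2 from FBXW11. Dividing by the length of all annotated exons instead moved NEDD4L to 2.21 per kb in NT, below the 3.47 of NEDD4. It also moved WWP2 to 7.31 and ITCH to 9.36, below the 10.7 of SMURF1 and the 11.7 of BTRC. The order of NEDD4 and NEDD4L, and the places of WWP2 and ITCH, thus rested on the transcript length used. In normalized counts, without regard to length, the 10 genes lay between percentile 52.1 (NEDD4) and 96.5 (SMURF2) of the genes tested, and none had fewer than 686 raw counts in a library.

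**Figure D3:**
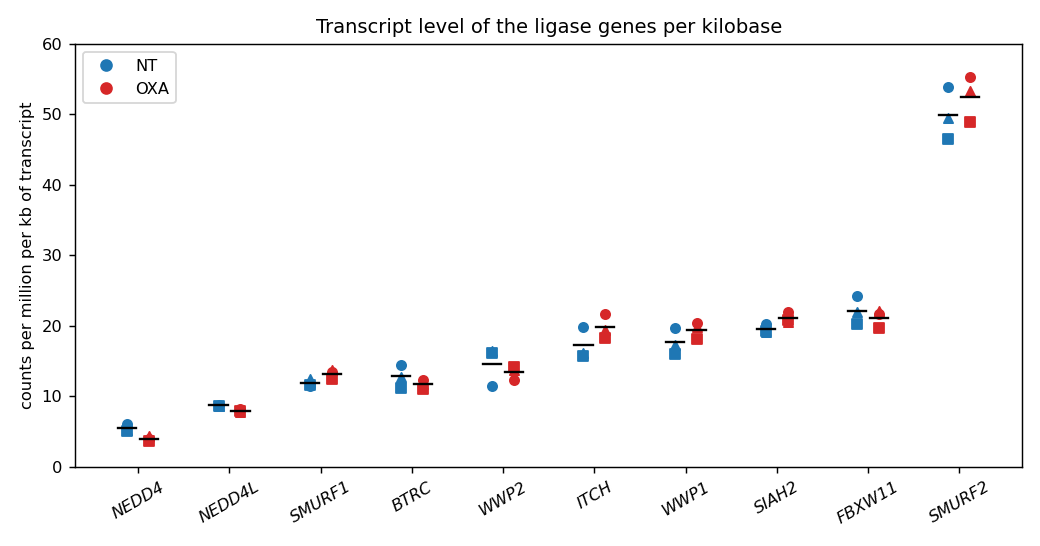
CPM per kb of canonical transcript of the 10 ligase genes in each NT (blue) and OXA (red) library, ordered by the NT mean, with a bar at each mean and circles, squares and triangles for libraries 1, 2 and 3. SMURF2 sits alone near 49.9 in NT and NEDD4 lowest at 5.47.

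Ratios of related ligase transcripts within a library do not depend on a scaling by 1 factor per library, though they do on the authors' gene-specific factors, and 5 ratios were compared by a two-sided exact permutation test, whose smallest p with 3 libraries against 3 is 0.1. The log2 ratio of NEDD4 to NEDD4L was -1.11, -1.36 and -1.33 in NT and -1.68, -1.72 and -1.43 in OXA. The groups did not overlap, and the ratio was lower in OXA in 3 of 3 pairs. The difference of -0.34, a fold of 0.788, had the smallest exact p possible, 0.1, and 0.5 after Benjamini-Hochberg adjustment over the 5 ratios. Per kb of transcript, NEDD4 was at 0.626 of the level of NEDD4L in NT and 0.493 in OXA.

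The log2 ratio of WWP1 to WWP2 was 0.90, 0.12 and 0.19 in NT and 0.84, 0.48 and 0.65 in OXA. NT library 1 was far from the other NT libraries, the groups overlapped, and the difference of 0.25 had an exact p of 0.4. Without NT library 1 it was 0.50 (exact p = 0.1, the smallest possible), and without NT library 2, NT library 3 or OXA library 1 it was 0.11, 0.15 and 0.16. From the authors' normalized values the same difference was 0.41 with an exact p of 0.1. For SMURF1 to SMURF2 the log2 ratio differed by 0.079 (exact p = 0.5), for ITCH to WWP1 by 0.062 (exact p = 0.3) and for BTRC to FBXW11 by -0.062 (exact p = 0.3). The first 2 of these differences were positive in 3 of 3 pairs, and the adjusted p was 0.5 for all 5 ratios. The difference of SMURF1 to SMURF2 was -0.0018 without NT library 1 and 0.0037 from the authors' values, and that of NEDD4 to NEDD4L from the authors' values was -0.44 (exact p = 0.1).

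**Figure D4:**
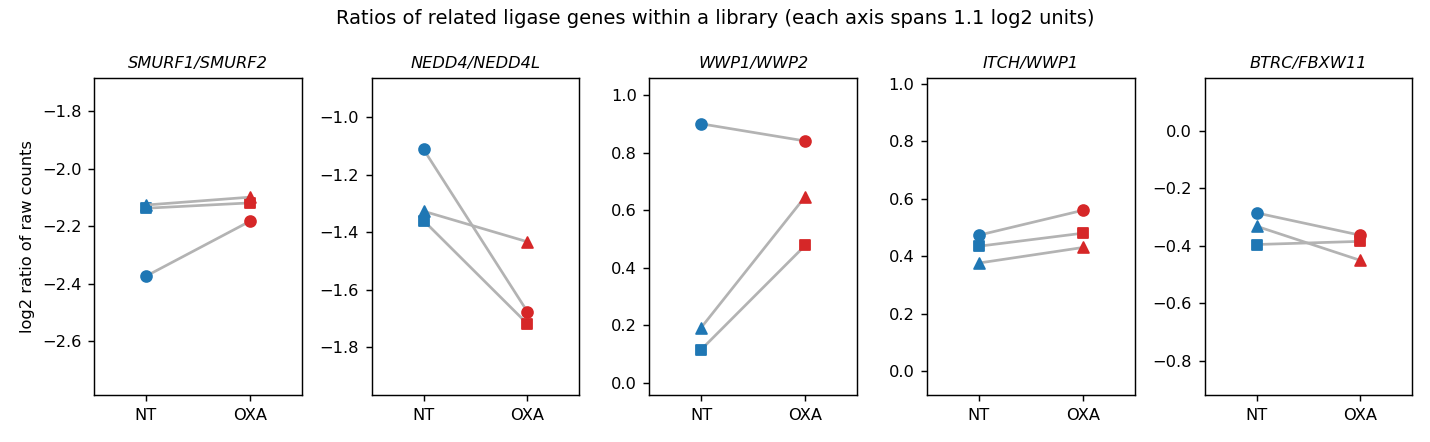
Log2 ratio of the raw counts of 2 related ligase genes within each library, in NT (blue) and OXA (red), with grey lines joining libraries of the same number (circles 1, squares 2, triangles 3). Each axis spans the same number of log2 units. NEDD4 to NEDD4L is the one ratio whose groups do not overlap, between -1.36 and -1.11 in NT and between -1.72 and -1.43 in OXA.

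Among 12 listed substrates and Hippo partners of the ligases, 11 were tested. At an edgeR adjusted p under 0.05, 0 were higher and 1 lower, against 5.07% of all genes tested. That gene was AMOT, a scaffold that binds YAP and is itself ubiquitinated by NEDD4-family ligases. It had 885, 946 and 867 normalized counts in NT and 619, 679 and 597 in OXA, without overlap. The log2 fold change came to -0.51 with SE 0.11 (edgeR adjusted p = 0.0391). The call was kept without NT library 1 (edgeR adjusted p = 0.0219) and lost without any other library (0.0918 to 0.176) and with the authors' factors (0.185). In the fits that left out a library the log2 fold change stayed between -0.57 and -0.50. With the block 2 genes of the list were higher and 2 lower, against 23.0% of all genes. Of these, AMOTL2, a relative of AMOT named here after its values were seen, had no overlap between the groups and differed by 0.39 on the log2 scale (edgeR adjusted p = 0.121, and 0.0207 with the block). The median log2 fold change of the list was 0.0072, and TP63 was near 0 counts in every library and was not tested.

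TP73, which encodes p73, the substrate of ITCH, had 622, 1111 and 1069 normalized counts in NT and 419, 664 and 577 in OXA. It was lower in OXA in every pair, but NT library 1 lay below OXA library 2. The log2 fold change of -0.75 (SE 0.25) had an edgeR adjusted p of 0.136 without the block and 0.0061 with it, and a DESeq2 adjusted p of 0.0255. Without the block, the edgeR adjusted p was 0.0101 without NT library 1, 0.220 to 0.356 without each of the other 5 libraries, and 0.143 with the authors' factors. For LATS1, the kinase on which ITCH, WWP1 and NEDD4 act, the log2 value was -0.13, at an edgeR adjusted p of 0.580. LATS2, the kinase on which SIAH2 acts, had 520, 558 and 583 normalized counts in NT and 649, 685 and 659 in OXA. Its groups did not overlap, and its log2 difference of 0.26 (SE 0.11) came with an edgeR adjusted p of 0.207, or 0.0627 with the block. YAP1 and WWTR1, whose products are read by the β-TrCP proteins, had log2 fold changes of 0.053 (edgeR adjusted p = 0.837) and 0.27 (edgeR adjusted p = 0.30, and 0.0186 with the block).

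The adaptors of the NEDD4 family are proteins that recruit these ligases to their targets, many of them through PPxY motifs. Of 12 listed adaptors and partners, 10 were tested, and 2 were higher and 0 lower at an edgeR adjusted p under 0.05, against 5.07% of all genes called. With the block 4 were higher and 1 lower, against 23.0% of all genes, and the median log2 fold change was 0.22. The lower gene was NDFIP1, named here after its values were seen, with a log2 fold change of -0.22. Its edgeR adjusted p was 0.326 without the block and 0.0413 with it. WBP2 and LAPTM5 were higher at an edgeR adjusted p under 0.05 only with the block. ARRDC4, an arrestin-domain adaptor, had 339, 316 and 315 normalized counts in NT and 665, 552 and 695 in OXA. The groups were far apart, at a log2 fold change of 0.98, with SE 0.13 (edgeR adjusted p = 0.0097). ARRDC3, of the same family, had 1463, 1292 and 1312 normalized counts in NT and 1920, 1712 and 2023 in OXA, without overlap, and differed by 0.48 on the log2 scale (SE 0.11, edgeR adjusted p = 0.0460). The call of ARRDC3 was lost with no filter (0.0637) and with the authors' factors (0.0668). Leaving out a library ended the call of ARRDC3 in all fits but that without NT library 1 (edgeR adjusted p of 0.0994 to 0.189, log2 fold changes 0.39 to 0.54), and that of ARRDC4 without NT library 3, OXA library 1 or OXA library 3 (0.0521 to 0.0699, log2 fold changes 0.88 to 0.95). The related TXNIP was listed at 0 counts in all 6 libraries.

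Of 8 listed ligases related to the members, 7 were tested. None had an edgeR adjusted p under 0.05, with 1 higher and 2 lower at an unadjusted p under 0.05 (21.7% over all genes), 0 called by DESeq2, and 1 higher and 1 lower with the block (23.0% over all genes). The lowest p of the list was that of FBXW7, the F-box subunit for cyclin E and MYC, with 1140, 985 and 976 normalized counts in NT and 1400, 1283 and 1334 in OXA. Its groups did not overlap, and the log2 fold change of 0.37 (SE 0.10) had an edgeR adjusted p of 0.0864 without the block and 0.0161 with it. The gene lower with the block was SIAH1, the close relative of SIAH2, named here after its values were seen. It had 786, 745 and 829 normalized counts in NT and 588, 593 and 689 in OXA, and differed by -0.34 on the log2 scale (edgeR adjusted p = 0.141, and 0.0294 with the block), opposite in sign to the 0.11 of SIAH2.

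All 14 listed genes of the shared machinery, the SCF core, ubiquitin and NEDD8 enzymes and CK1 kinases, were tested. None had an edgeR adjusted p under 0.05, with 1 at an unadjusted p under 0.05, 0 called by DESeq2, and 2 higher and 1 lower with the block. The background shares for these counts, in the same order, were 5.07%, 21.7%, 8.71% and 23.0%. The gene with the lowest p was UBE2M, an E2 for NEDD8, the modifier that activates SCF ligases, at 2039, 2443 and 2261 normalized counts in NT and 2637, 2840 and 2631 in OXA. Its groups did not overlap, and the difference was 0.27 on the log2 scale (SE 0.097), with an edgeR adjusted p of 0.165, or 0.0266 with the block. The list of 16 other ubiquitin enzymes known to act on Hippo proteins, p73 or p53 was tested in full. At an edgeR adjusted p under 0.05, 1 was higher and 0 lower (5.07% over all genes), and DESeq2 called 3 (8.71%). With the block 3 were higher (MDM2, OTUB2 and DDB1) and 1 lower (USP1), against 23.0% of all genes. The gene called without the block was MDM2, the p53 ligase and itself a p53 target. MDM2 had 6940, 5502 and 6425 normalized counts in NT and 32503, 27231 and 28204 in OXA, higher by 2.22 on the log2 scale (SE 0.12, edgeR adjusted p = 0.0004). No member of the ligase set came near this size.

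**Figure D5:**
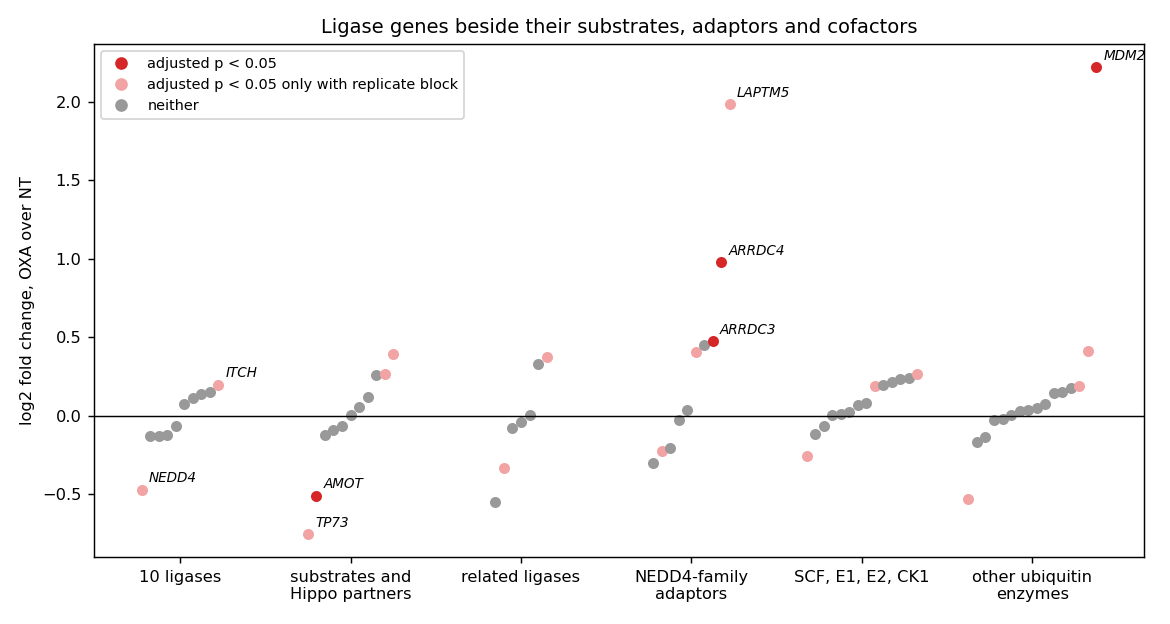
Log2 fold change, OXA over NT, of every tested gene of the 10 ligases and of the 5 lists around them, each dot a gene, sorted within its list, red where the edgeR adjusted p was under 0.05, pink where it was so only with the replicate block and grey otherwise. The ligase genes lie between -0.47 and 0.20, while MDM2 lies at 2.22 and ARRDC4 at 0.98. LAPTM5, at 1.99, rests on no more than 15.1 normalized counts in a library.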

How the data were processed

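RNA of HCT116 cells was sequenced in 3 NT and 3 OXA libraries. Per the labels, the libraries were stranded and made from polyadenylated RNA. The submitters' processing notes name Trimmomatic 0.32, STAR 2.7.5b, RSEM 1.3.3 and DESeq2 2.13 with the build GRCh38. The strand setting of counting and the treatment of reads shared between related genes are not given in the sources used here. For each gene and library the authors deposited a raw count, always whole and used unchanged, beside a normalized value. This normalized signal of the authors equals the raw count times a factor that differs between genes, and the deposited signal served for alternatives.

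Counts were filtered with filterByExpr (minimum count 10, minimum total 15), scaled by TMM and tested with the edgeR quasi-likelihood test (edgeR 4.0.16, limma 3.58.1, R 4.3.3), with Benjamini-Hochberg adjustment over 13727 genes and a threshold of 0.05. Intervals are at 95%. DESeq2 1.42.0, other scalings and filters, the authors' factors, the replicate block and fits that each left out a library were alternatives. The edgeR fit without the block was run on simulated counts that held no effect of the replicate number. The block, DESeq2, the authors' factors and the ratio tests were not run on simulated data. Ratios used raw counts plus 0.5.

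Deviations from the group means correlated at 0.511, 0.502 and 0.280 between libraries 1, 2 and 3 of NT and OXA, and at -0.436 to 0.083 between different numbers. All same numbers were over 0.1, so the numbers, taken from the labels, were treated as pairs in the replicate block and in the same-numbered ratios. The reported fit was not paired, and intervals and adjusted p-values given without mention of the block come from it. Blocked counts are given for the ligase genes and the lists around them, and blocked values for some genes only.

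The members and lists were chosen with earlier results of these data known. Named are all 10 members, the genes of each list with an edgeR adjusted p under 0.05 (or else the lowest p), LATS1, LATS2, YAP1, WWTR1, TP73 and CDKN1A, and the 3 genes closest in pattern to NEDD4 and to ITCH with a mean of at least 50 normalized counts. Some other genes of the lists, among them AMOTL2, SIAH1 and NDFIP1, were named after their values were seen. N4BP1 was not analysed here, nor were the protein and viability experiments of the study.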

Additional observations from a re-analysis of the deposited data

How the results depend on the processing

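Of the 170 values that the 10 ligase genes took under the alternatives, 154 kept their direction and side of the threshold, 12 passed it where the reported value did not, and 4 changed sign. No call could be lost, since the reported fit called 0 of the 10. The 170 values include those of the settings chosen after seeing the data, which are named below. The count of ligase genes called, 0 as reported, was 1 with upper quartile scaling and 1 with DESeq2 (NEDD4 each time), 2 with the replicate block, and 0 with RLE scaling, no filter, a filter of 1 CPM, the authors' factors and each library left out. The count over all genes, 696 as reported, was 1175 with DESeq2, 451 with the authors' factors, 3157 with the replicate block and 85 (without OXA library 1) to 1194 (without NT library 1) with a library left out. The 381 higher and 315 lower became 348 and 493 with upper quartile scaling and 363 and 479 with the filter of 1 CPM. In settings chosen after seeing the data, the block with the authors' factors called 1 ligase gene and 2602 of 13658 genes tested. The block without pair 1, 2 or 3 called 5, 1 and 1 ligase genes. Over all genes, the block without pair 1, 2 or 3 called 5739 of 13845, 1629 of 13764 and 3079 of 13781 tested. The 5 ligase genes were ITCH, NEDD4, NEDD4L, WWP1 and WWP2. NEDD4L turned to a log2 fold change of 0.015 with the authors' factors and 0.0091 with these in the blocked fit. With a library left out, FBXW11 ranged from -0.16 to 0.0043, SMURF2 from -0.0078 to 0.13, YAP1 from -0.058 to 0.13, and the log2 ratio of SMURF1 to SMURF2 from -0.0018 to 0.12. The replicate block changed the call of no ratio, since sign flips over 3 pairs cannot give a p below 0.25. The causes of these shifts were not tested. How much of the spread is counting error was not tested.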

Other observations

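The genes whose normalized counts (log2 of counts plus 1) followed NEDD4 most closely over the 6 libraries were REV1, a translesion DNA polymerase (r = 0.9984), ARSB, a lysosomal sulfatase (r = 0.9977), and TMEM237, a ciliary membrane protein (r = 0.9975). Those closest to ITCH were ANXA2 (r = 0.9973), NAA35 (r = 0.9972) and ZNF33B (r = 0.9969). These are the 3 highest values for each gene among the tested genes with a mean of at least 50 normalized counts. The 6 libraries share their scaling and their groups, and the values are given as a description.

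The factor between the authors' normalized value and the raw count ranged from 0.821 to 1.45 over the 10 ligase genes and 6 libraries. For WWP2 it was 1.45, 0.879 and 1.07 in NT and 1.37, 0.921 and 0.858 in OXA, which gave authors' values of 2637, 2199 and 3104 in NT and 2517, 1927 and 2143 in OXA. In OXA library 2 it was 1.31 for NEDD4L and 1.27 for NEDD4. For NEDD4 the authors' values were 1252, 1010 and 1027 in NT and 734, 872 and 831 in OXA, and the groups still did not overlap.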
